A study of Homo sapiens with 28 samples.

Results

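Labelled RNA was compared with total RNA in unactivated Jurkat cells, a leukaemia line that serves as a model of the T lymphocyte. The comparison takes in 3 labelled and 3 total RNA samples of the 28 in the series, and all 7485 genes of the deposited table. These 6 samples were chosen by their labels alone, as the samples taken before any activation. The cells were grown in RPMI1640, and the other samples of the series were taken 1 to 4 h after phorbol myristate acetate (PMA, 0.5 µg/ml) and phytohaemagglutinin (PHA, 2 µg/ml), which together activate T cells. The treatment field calls the 6 samples unactivated, although the same treatment protocol, with both agents, is attached to every sample. All samples come from 1 leukaemia line, and the design text describes the replicates of a group as biological.

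Cells given 4-thiouridine (4sU) build this uridine analogue into the RNA they make during the labelling, so a pulldown through its sulphur atom collects young RNA, while total RNA holds young and old molecules together. In cells at steady state, a transcript that is made and broken down fast has a large young share, and a transcript that lasts long has a small one. If transcripts are captured alike, the difference between labelled and total RNA orders genes by relative turnover. Whether capture differed with transcript length or number of uridines was not tested. Textbook examples of short-lived mRNAs are those of immediate early genes, cytokines and many transcription factors. The mRNAs of ribosomal proteins, glycolytic enzymes and mitochondrial respiration are known as long-lived. The authors' deposited decay rates imply a factor of 0.266 on the labelled-to-total ratio, described near the end. The sources used here give neither the length of the 4sU labelling nor how the deposited labelled and total values were scaled. A difference therefore places a gene relative to other genes and gives no half-life.

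The deposited values are the authors' means and SDs of each group on a per-million-like scale, and values of single samples were not used here. The means of the 7485 genes added up to 958269 in total RNA and 913919 in labelled RNA, and read depth is unknown. Labelled RNA was the noisier kind: its median coefficient of variation between samples was 18.2%, against 7.91% in total RNA. Of 17 T cell markers 11 were listed, among them CD3D, CD3G, CD247, LCK, RAG1 and RAG2, while none of 8 B cell and 7 erythroid markers was listed. Of 12 myeloid markers 2 were listed (AIF1 and VCAN), as were 2 of 11 markers of fibroblasts and epithelia (VIM and THY1).

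Most genes differed between the kinds of RNA. With limma, a moderated test fitted here to the group means and SDs on the log2(value + 1) scale, 2697 genes were higher in labelled RNA and 1749 were lower at an adjusted p under 0.05. These make up 36.0% and 23.4% of the genes tested, 59.4% together, and every share of a gene group below is to be read against them. At least a 2-fold difference was reached by 1185 genes with more labelled RNA (15.8%) and 430 with less (5.74%). The log2 difference, labelled minus total, ran from -2.26 to 2.89 over genes, with a median of 0.15 and a typical standard error of 0.18. The log2(value + 1) scale understates the change of low genes. Because the median gene lay above 0, the split between the directions depends on scaling: 60.7% of the called genes were higher as deposited, 48.9% with both kinds of RNA set to the same median, and 49.3% with quantile normalisation. In the groups set to the same median, 2165 genes (28.9%) were higher and 2266 (30.3%) lower, so values of gene groups are given below with the median of all genes in mind.

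**Figure D1:**
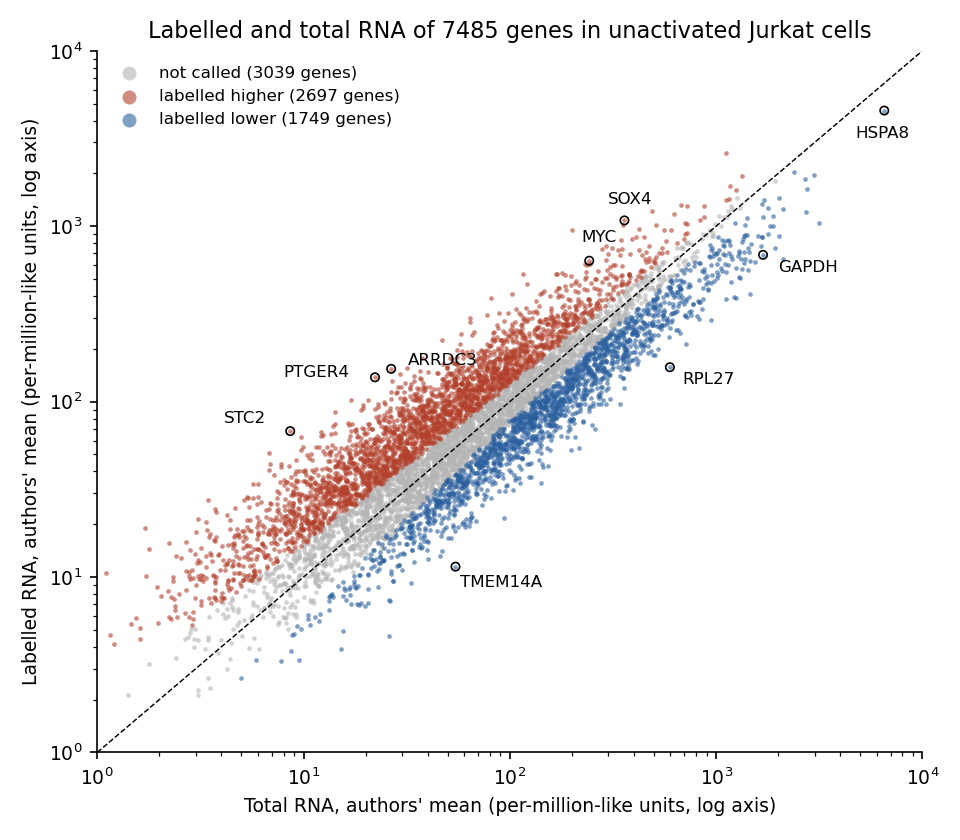
Authors' mean in labelled RNA (vertical, log axis) against the mean in total RNA (horizontal, log axis) for 7485 genes, in per-million-like units, with 3 samples behind each mean. Red points are the 2697 genes called higher in labelled RNA, blue points the 1749 called lower, grey points the rest, circles the genes named in the plot, and the dashed line marks equal values. Red points crowd the lower left, where total RNA is scarce, and blue points the upper right.

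The highest differences belonged to a hormone, signalling proteins and regulators, all at low levels in total RNA. STC2, which encodes the secreted glycoprotein stanniocalcin 2, had a mean of 8.62 ± 1.18 (SD, n = 3) in total RNA and 67.9 ± 27.2 in labelled RNA, a log2 difference of 2.84 ± 0.27 (SE). C20orf112 followed, with 6.77 ± 1.16 in total and 50.7 ± 10.2 in labelled RNA. PTGER4, a receptor of prostaglandin E2, stood at 22.2 ± 3.64 in total and 137 ± 34.1 in labelled RNA, a log2 difference of 2.58 ± 0.20. EGLN2, a prolyl hydroxylase that marks the hypoxia factor HIF for destruction, stood at 9.69 ± 1.041 and 62.5 ± 7.86, with 71.3% of its exonic bases shared with another annotated gene. TRAPPC9, a subunit of a vesicle tethering complex, had 14.1 ± 0.345 in total and 86.9 ± 12.3 in labelled RNA. ZNF780B, a zinc finger gene, was measured with the least scatter of these genes in labelled RNA, with 16.9 ± 0.161 in total and 102 ± 4.40 in labelled RNA. ARRDC3, an arrestin family member, went from 26.6 ± 2.44 in total to 154 ± 56.4 in labelled RNA. ERN1, which encodes IRE1, the endoplasmic reticulum stress sensor that splices XBP1 mRNA, went from 6.80 ± 1.57 to 40.8 ± 14.3, a log2 difference of 2.42 ± 0.27. The noncoding RNA FTX, which lies in the X-inactivation centre, stood at 9.96 ± 2.96 and 55.3 ± 10.5, with 80.3% shared. The others among the 12 highest were GARNL3 (log2 difference 2.50 ± 0.26), the zinc finger gene ZNF417 (2.38 ± 0.24) and DNAJC27 (2.37 ± 0.21), and all 12 had adjusted p between 3.00e-07 and 5.69e-06 by limma.

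The lowest differences belonged to genes of basic cell functions with short mRNAs, of 730 to 2391 bases where a 3' UTR is annotated, against 2821 to 8665 bases for the highest. TMEM14A, a small membrane protein, had 54.5 ± 8.52 in total and 11.5 ± 4.52 in labelled RNA, a log2 difference of -2.16 ± 0.26. HRSP12, a deaminase that clears reactive intermediates of amino acid metabolism, went from 93.9 ± 11.6 in total to 21.7 ± 6.80 in labelled RNA. PPA2, the mitochondrial pyrophosphatase, went from 215 ± 7.48 to 54.6 ± 18.4, a log2 difference of -1.96 ± 0.20. RPL27, a protein of the large ribosomal subunit, stood at 597 ± 94.2 in total and 157 ± 21.8 in labelled RNA (-1.92 ± 0.14). SNX3, a sorting nexin of endosomes, stood at 197 ± 7.71 and 52.8 ± 12.04. SNRPF, a core protein of the spliceosomal particles, stood at 258 ± 19.4 and 69.8 ± 3.65 (-1.87 ± 0.13). The cytoskeletal actin ACTG1 went from 1457 ± 101 in total to 408 ± 85.1 in labelled RNA. EIF5A, a translation factor, went from 251 ± 27.3 to 73.7 ± 24.5. RUVBL2, a chaperone ATPase of chromatin complexes (-1.81 ± 0.23), the methionine salvage enzyme ADI1 (-1.81 ± 0.17), CHMP5 of the ESCRT membrane-cutting machinery (-1.76 ± 0.20) and RPSAP58, a ribosomal protein pseudogene (141 ± 38.1 in total and 34.5 ± 10.4 in labelled RNA) complete the 12 lowest, with adjusted p between 3.01e-07 and 1.63e-05 by limma. RPSAP58, ACTG1 and EIF5A, like the ribosomal protein, histone and zinc finger genes below, have near-identical or closely related copies elsewhere in the genome, so their reads may have been split or lost in the authors' counting.

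For each of these 24 genes the labelled and the total samples cannot overlap, whatever the single values were, because no value among 3 can lie more than 1.41 SD from its mean. This held for 2172 genes with labelled RNA higher (29.02% of the genes tested) and for 1542 with labelled RNA lower (20.6%). All 12 of the highest genes were called higher again in the separate samples of 1, 2, 3 and 4 h, and all 12 of the lowest were called lower again, by limma.

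**Figure D2:**
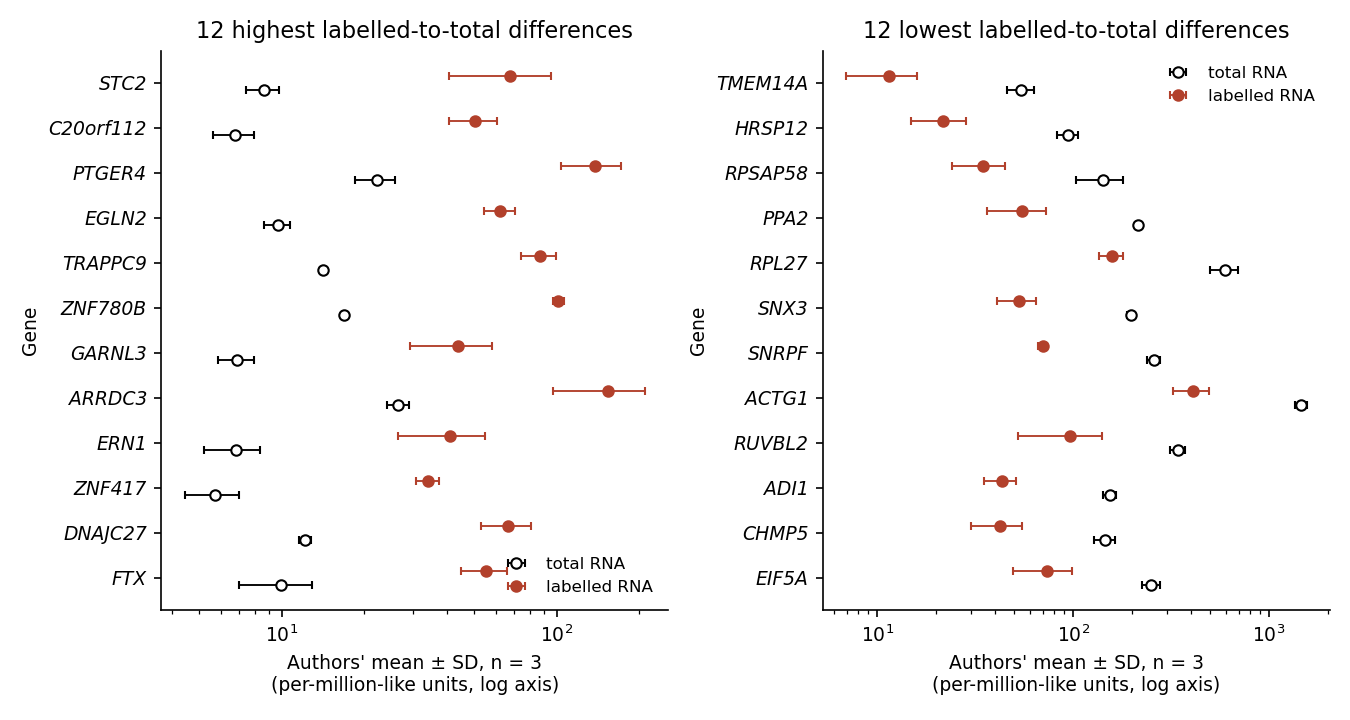
Authors' mean ± SD (n = 3) in total RNA (open points) and labelled RNA (red points) for the 12 genes with the highest (left) and the 12 with the lowest (right) labelled-to-total difference among called genes with a mean of at least 5 in both, on log axes in per-million-like units. The total RNA means of the left panel lie between 5.71 and 26.6, and those of the right panel between 54.5 and 1457.

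The most abundant transcripts were found on both sides. HSPA8, the constitutive HSC70 chaperone, had the highest mean of all genes in both kinds of RNA, with 6527 ± 618 in total and 4561 ± 623 in labelled RNA, a log2 difference of -0.52 ± 0.10. KIAA1551 was the next highest in labelled RNA, with 1111 ± 58.0 in total and 2625 ± 279 in labelled RNA (1.24 ± 0.09). The nuclear noncoding RNA MALAT1 went from 1331 ± 187 in total to 1939 ± 321 in labelled RNA, and the nuclear RNA-binding protein SFPQ from 1166 ± 56.1 to 1691 ± 135. RMRP, the RNA part of an RNA-cutting enzyme, had 2116 ± 341 in total and 649 ± 202 in labelled RNA (-1.70 ± 0.17). MATR3, a nuclear matrix protein, was not called, at 1930 ± 136 and 1813 ± 121, and 96.7% of its exonic bases also lie in exons of another annotated gene. Of common reference genes, GAPDH was lower by a log2 difference of -1.30 ± 0.13 and the actin gene ACTB by -1.01 ± 0.10. ELAVL1, which encodes HuR, a protein that binds and steadies AU-rich mRNAs, was at -0.69 ± 0.14.

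Immediate early genes, regulators that cells switch on without making new protein, were on the labelled side even without a stimulus. Of 15 listed members of a list of 41, 12 were higher in labelled RNA, 0 were lower and 3 were not called (MAFK, SRF and BTG1). Their median log2 difference was 1.32, against 0.15 over all genes. In the quintile of genes with the lowest total values, where 11 of the 15 lay, the median of all genes was 0.77. With quantile normalisation 9 were called higher. Many were scarce: 4 of the 12 (MCL1, MYC, PPP1R15A and KLF6) had means of at least 10 in both kinds of RNA, and all 4 were called higher with that filter. FOSL2, which pairs with JUN proteins in AP-1, went from 3.45 ± 0.319 in total to 27.4 ± 8.19 in labelled RNA, a log2 difference of 2.67 ± 0.26. KLF10 and KLF6, zinc finger transcription factors, were at 2.04 ± 0.27 and 1.77 ± 0.23. MYC, the growth-driving transcription factor, was far more abundant, at 242 ± 5.94 in total and 636 ± 125 in labelled RNA (1.39 ± 0.13). JUNB, an AP-1 subunit, stood at 9.40 ± 2.04 and 24.9 ± 12.1, and IER3, a survival factor, at 4.59 ± 0.504 and 10.6 ± 4.23. MCL1, a BCL2 family survival factor with a short-lived protein, stood at 208 ± 16.8 and 472 ± 99.7.

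Feedback inhibitors of signalling were on the same side. Of 7 MAP kinase phosphatases and Sprouty proteins, 6 were higher, 0 were lower and DUSP5 was not called (0.39). In the quintile of genes with the lowest total values lay 6 of the 7, and 58.8% of all genes in that quintile were higher. With means of at least 10 in both kinds of RNA 3 were called higher, and with quantile normalisation 4. SPRY1, which dampens growth factor signalling, went from 8.36 ± 0.557 in total to 34.9 ± 6.27 in labelled RNA. DUSP2, a nuclear phosphatase that switches off ERK, went from 19.2 ± 2.90 to 71.1 ± 16.2, a log2 difference of 1.84 ± 0.21. Of 17 targets and inhibitors of NF-kB, the transcription factor of inflammatory signalling, 8 were higher and 1 was lower, with a median of 0.37. With both kinds of RNA set to the same median, 8 were higher and 4 lower. TNFAIP3, which encodes A20, a brake on this pathway, was at 2.21 ± 0.27. NFKBIA, which encodes the inhibitor IkB alpha, stood at 15.04 ± 1.94 in total and 36.3 ± 15.04 in labelled RNA. NFKBIE, a related inhibitor, was at 1.37 ± 0.23, and BIRC3, a ubiquitin ligase that blocks cell death, at 1.52 ± 0.22. TNIP2, an A20-binding protein, was the 1 member lower, at -0.74.

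Transcription factors of T cells and their progenitors leaned to labelled RNA, while the receptor machinery was spread over both sides. Of 23 factors listed as such 17 were higher, 0 were lower and 6 were not called, with a median of 1.06. With both kinds of RNA set to the same median 15 were higher and 1 lower. SOX11, a neural factor that the list also holds, had its highest difference, going from 37.3 ± 2.29 in total to 176 ± 28.9 in labelled RNA (2.21 ± 0.16). BCL11A (1.68 ± 0.19), RUNX3 (1.65 ± 0.25) and TCF7, a mediator of Wnt signalling (1.65 ± 0.15), came next among the named factors. Of the factors not called, MYB (0.08) and ETS1 (0.03) were at the level of the median gene. Of 34 genes of the receptor and its first signalling steps 10 were higher and 7 lower, with a median of 0.14. That lean turned to 8 higher and 11 lower with equal medians, and to 7 and 11 with quantile normalisation. Within the list, LCK, the kinase that starts receptor signalling, went from 558 ± 57.3 in total to 275 ± 59.2 in labelled RNA (-1.02 ± 0.14). The receptor chains CD247 (-0.90), CD3G (-0.65) and CD3D (-0.61) were lower too. The adaptors LCP2 (SLP-76, 1.44 ± 0.20) and FYB (1.28 ± 0.13) and the ubiquitin ligases CBLB (0.87) and CBL (0.46), which restrain the receptor, were higher. RAG1 and RAG2, the recombinase of antigen receptor genes, were higher by 0.60 ± 0.14 and 1.23 ± 0.20, and the chemokine receptor CXCR4 by 0.92 ± 0.12.

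Genes named ZNF, ZFP, ZKSCAN or ZSCAN, most of which encode DNA-binding zinc finger proteins, made up the largest group on the labelled side. Of 258 listed, 219 (84.9%) were higher, 3 (1.16%) were lower and 36 were not called, with a median of 1.07. At least a 2-fold difference was reached by 144 of them upward and by 0 downward. ZNF827 stood at 1.70 ± 0.351 in total and 19.03 ± 4.84 in labelled RNA, the highest log2 difference of all genes (2.89 ± 0.27), at a low total value. Their total RNA was low as a group, with a median mean of 22.9 against 60.4 over all genes. Of 76 chromatin regulators 36 were higher and 13 lower (median 0.34), led by the DNA demethylation enzyme TET3 (1.76 ± 0.14), with the histone demethylase KDM1B at -1.47 ± 0.18 and the remodelling ATPase SMARCA1 at -1.45 ± 0.18 on the other side. Of 49 F-box and KLHL genes, substrate receptors of ubiquitin ligases, 28 were higher and 3 lower (median 0.50), led by KLHL21 (2.03 ± 0.26) and FBXO46 (1.95 ± 0.28).

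Genes linked to low oxygen leaned to labelled RNA, while solute carriers and p53 targets were closer to all genes, of which 36.0% were higher. Of 17 hypoxia-linked genes 11 (64.7%) were higher and 1 (BNIP3L, -0.39) was lower, with a median of 0.95. They include STC2, ARRDC3 and EGLN2 of the 12 highest genes, but the list was chosen with earlier results of these data known. With means of at least 10 in both kinds of RNA 7 were called higher and 1 lower. VEGFA, the growth factor of blood vessels, went from 4.40 ± 0.678 in total to 21.1 ± 9.34 in labelled RNA, and TXNIP, an inhibitor of glucose uptake, from 33.2 ± 3.89 to 127 ± 46.2 (1.90 ± 0.22). Of 120 solute carriers, membrane transporters, 50 (41.7%) were higher and 18 lower (median 0.38), which became 41 and 25 with equal medians. SLC20A1, a phosphate importer, had 116 ± 2.10 in total and 531 ± 18.3 in labelled RNA, a log2 difference of 2.19 ± 0.11. SLC30A1, a zinc exporter, was at 1.86 ± 0.19. Of 12 p53 targets 3 (25%) were higher and 2 lower, with MDM4, an inhibitor of p53, at 1.52 ± 0.16 and the cell cycle inhibitor CDKN1A at 0.99 ± 0.24. MDM2, the ubiquitin ligase of p53, was not called (0.11).

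Apoptosis regulators, both of survival and of death, lay on both sides. Of 23 genes 9 were higher and 6 lower, which became 8 and 8 with equal medians and 7 and 8 with quantile normalisation. Higher were BCL2L11, the killer protein BIM (19.3 ± 2.15 in total, 95.5 ± 24.7 in labelled RNA, log2 difference 2.25 ± 0.21), BIRC3, CFLAR, a brake on caspase-8 (1.29 ± 0.27), MCL1, BCL2L1 (0.88), CASP8 (0.85), BCL2 (0.80), CASP2 (0.60) and BIRC6 (0.39). The lower ones include CYCS, cytochrome c (-0.79), BID (-0.68), BIRC5, survivin (-0.52), CASP6 (-0.47) and BNIP3L.

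Cytosolic ribosomal proteins were mostly lower in labelled RNA, with exceptions. Of 73 listed, 44 (60.3%) were lower, 14 (19.2%) were higher and 15 were not called, with a median of -0.64. The quintile with the highest total values held 52 of the 73, and the quintile of shortest transcripts held 54. Among all 320 genes in both quintiles 83.8% were lower, with a median of -0.83. The parts of level and length were not tested. RPS20, a protein of the small subunit, went from 949 ± 101 in total to 292 ± 40.5 in labelled RNA, and RPS6, the small subunit protein that S6 kinase phosphorylates, from 2722 ± 226 to 1199 ± 96.6. RPS10 went the other way, from 4.66 ± 0.765 to 24.7 ± 3.22. In RPS10 88.0% of the exonic bases also lie in exons of another annotated gene, and the sources used here do not give how reads in more than 1 gene were counted. The 5 ribosomal protein genes with at least 50% such overlap had a median difference of 0.76 and a median total mean of 30.9. Among the 68 others 43 were lower and 11 higher. Such overlap was also high in NDUFV2 (82.9%), EIF4A1 (100%) and DDX47 (99.7%), whose means in total RNA lay between 3.49 and 15.4 and whose differences were the highest of their lists. Over all genes, the 215 with such overlap had a median difference of 0.39, against 0.14 for the 7190 with less.

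Most nuclear genes of the mitochondrial lists lay on the total side. Many had short transcripts, and in the quintile of shortest transcripts 46.9% of all genes were lower. That quintile held 42 of the 59 respiratory chain and ATP synthase genes and 43 of the mitochondrial ribosomal protein genes. Of 59 subunits of the respiratory chain and ATP synthase 47 (79.7%) were lower and 1 was higher (NDUFV2, 2.07 ± 0.29), with a median of -0.84. COX7B, a subunit of cytochrome c oxidase, went from 143 ± 12.8 in total to 43.9 ± 6.27 in labelled RNA, and ATP5C1, the rotor shaft of ATP synthase, from 293.2 ± 16.6 to 96.5 ± 8.04 (-1.59 ± 0.13). Of 59 mitochondrial ribosomal proteins 35 were lower and 3 higher (median -0.59), with MRPL45 at -1.58 ± 0.22 and MRPL11 at -1.49 ± 0.16. Of 16 enzymes of the tricarboxylic acid cycle 12 were lower and 1 higher (median -0.61), with OGDH at -1.33 ± 0.20, SUCLG2 at -1.15 ± 0.21 and MDH2 at -1.06 ± 0.17.

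Glycolysis genes leaned to total RNA, with glucose transporters among the exceptions. Of 19 genes 10 were lower and 3 higher, which became 10 and 1 with means of at least 10 in both kinds of RNA. The quintile with the highest total values, where 53.2% of all genes were lower, held 10 of the 19. ENO1, enolase, went from 3147 ± 261 in total to 1036 ± 154 in labelled RNA (-1.60 ± 0.11), and PGK1 from 830 ± 80.0 to 297 ± 39.0. LDHA (-1.20), PKM (-0.95), ALDOA (-0.93) and TPI1 (-0.74) were lower as well. The 3 higher genes were the glucose transporters SLC2A3 (1.78 ± 0.31) and SLC2A1 (1.36) and the muscle enolase ENO3 (0.99). The glycolytic kinases HK2 (0.22), PFKFB3 (0.23) and PFKFB2 (0.40) were not called.

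The machines that make and remove proteins were on the total side as well. Many of these genes were abundant, and in the quintile with the highest total values 53.2% of all genes were lower. That quintile held 20 of the 36 proteasome genes, 31 of the 46 translation factors and 15 of the 37 aminoacyl-tRNA synthetases. It also held 30 of the 42 chaperones and 43 of the 86 ribosome biogenesis genes, and the part of level was not tested. Of 36 proteasome genes 26 (72.2%) were lower and 3 higher, with a median of -0.78. PSMA5 of the core particle went from 507 ± 52.0 in total to 185 ± 45.7 in labelled RNA, and PSMD13 of the lid from 196 ± 9.35 to 69.9 ± 10.8. Of 46 translation factors 27 were lower and 3 higher (median -0.41). EIF5A and EIF6 (-1.51 ± 0.19) were the lowest of those named, and EIF4A1, the RNA helicase that opens mRNAs for the ribosome, was higher (1.58 ± 0.19), with the overlap given above. Of 37 aminoacyl-tRNA synthetases 20 were lower and 4 higher (median -0.53), led by QARS (-1.29 ± 0.14) and SARS (-1.21 ± 0.15). Of 42 chaperones 27 were lower and 8 higher (median -0.51). The CCT folding chamber subunits CCT3 (-1.33 ± 0.11) and CCT4 (-1.33 ± 0.10) and HSP90AB1 (-1.20 ± 0.09) were the lowest, while DNAJB4 (1.31), HSPE1 (0.99) and the inducible DNAJB1 (0.59) were higher. Of 86 ribosome biogenesis genes 32 were lower and 16 higher (median -0.24), with FBL, the methyltransferase fibrillarin, at -1.45 ± 0.19.

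Splicing factors divided by kind. The quintile with the highest total values, where 53.2% of all genes were lower, held 27 of the 45 spliceosomal genes listed. It also held 26 of the 39 SR and hnRNP genes. Of 45 genes of the spliceosomal particles 32 (71.1%) were lower and 5 higher, with a median of -0.55, SNRNP25 at -1.39 ± 0.25, and SNRPA1 (1.69 ± 0.20) among the higher. Of 39 SR and hnRNP genes 16 were lower and 13 higher, which became 13 and 14 with quantile normalisation. The 4 CLK genes of that list, kinases that phosphorylate SR proteins, were all positive: CLK1 stood at 119 ± 1.03 in total and 343 ± 26.6 in labelled RNA (1.51 ± 0.12), CLK4 at 1.37 ± 0.17 and CLK3 at 1.33, while CLK2 (0.43) was not called. PTBP2, the neural form of the splicing repressor PTB, was at 1.64 ± 0.14, and PTBP1 (-0.66) and PTBP3 (-0.75) were lower.

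Of the machinery that removes mRNA, 23 of 56 genes were higher and 11 lower, with a median of 0.13, close to that of all genes. CNOT4, a ubiquitin ligase of the CCR4-NOT complex (1.56 ± 0.18) and TOB2, which recruits that deadenylase complex to mRNAs (1.45 ± 0.24), were higher. So were TNRC6A (1.23), TNRC6B (1.25) and TNRC6C (1.06), the GW182 proteins of microRNA silencing, and the decapping factors DCP1A (0.96) and DCP1B (0.80). The scavenger decapping enzyme DCPS (-1.30 ± 0.30), the nuclear exonuclease XRN2 (-1.08) and the decapping enzyme DCP2 (-0.40) were lower. Of 22 proteins that bind AU-rich and related elements 10 were higher and 3 lower. CPEB2, which binds cytoplasmic polyadenylation elements, stood at a log2 difference of 1.53 ± 0.27. YBX1, an abundant mRNA-coating protein, went from 1222 ± 128 to 395 ± 99.5, and ELAVL1 and FMR1 (-0.67) were the other lower members.

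Genes of the replication-dependent histone list, drawn up by gene name, were low in labelled RNA. Such histone mRNAs typically end in a stem-loop in place of a poly(A) tail, but other forms are annotated. The transcript used for HIST1H2AG has a 3' UTR of 1827 bases and that for HIST1H2BD has 2 exons. Which forms were counted was not tested. Of 38 listed, 28 (73.7%) were lower and 1 was higher, with a median of -0.88, the lowest of the 35 lists described. HIST1H2AG went from 358 ± 31.0 in total to 119 ± 22.0 in labelled RNA, and HIST1H2BD from 1311 ± 172 to 504 ± 46.4. Of 54 replication genes 21 were lower and 10 higher, with the sliding clamp PCNA at -1.12 ± 0.11 and the transcription factor E2F3 at 1.44 ± 0.18. Of 66 genes of the G2 and M phases 25 were lower and 11 higher, with the checkpoint kinase BUB1 at -1.12 ± 0.17. CENPE, a kinetochore motor with a long transcript, was higher, at 232 ± 30.4 in total and 609 ± 42.6 in labelled RNA.

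Some lists held both extremes. Of 35 genes of the unfolded protein and stress responses 13 were higher and 10 lower. The higher ones include the sensors ERN1 and EIF2AK3 (1.03), the co-chaperone DNAJB9 (1.96 ± 0.21), HERPUD1 (1.40) and the phosphatase subunits PPP1R15A (1.54) and PPP1R15B (1.27). The lower ones include the endoplasmic reticulum chaperones CALR (-1.08), CANX (-0.85), HSPA5 (-0.41) and HSP90B1 (-0.35) and the serine synthesis enzyme PHGDH (-1.47 ± 0.15). Of 21 cholesterol genes 6 were higher and 6 lower, with the enzymes ACAT2 (-1.43 ± 0.23) and NSDHL (-1.07 ± 0.22) among the lower ones. Of 18 interferon response genes 5 were higher and 7 lower. IRF1, a transcription factor, was at 1.72 ± 0.18, and B2M (-1.16) and the immunoproteasome subunit PSMB8 (-1.27 ± 0.15) were lower. Of 26 textbook HuR targets 12 were higher and 8 lower, led by VEGFA and CDKN1B, an inhibitor of cyclin-dependent kinases (1.99 ± 0.18). Of 7 snoRNA hosts and other noncoding RNAs 4 were higher (FTX, SNHG15, EPB41L4A-AS1 and MALAT1) and RMRP and SNHG8 (-1.43 ± 0.20) were lower.

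**Figure D3:**
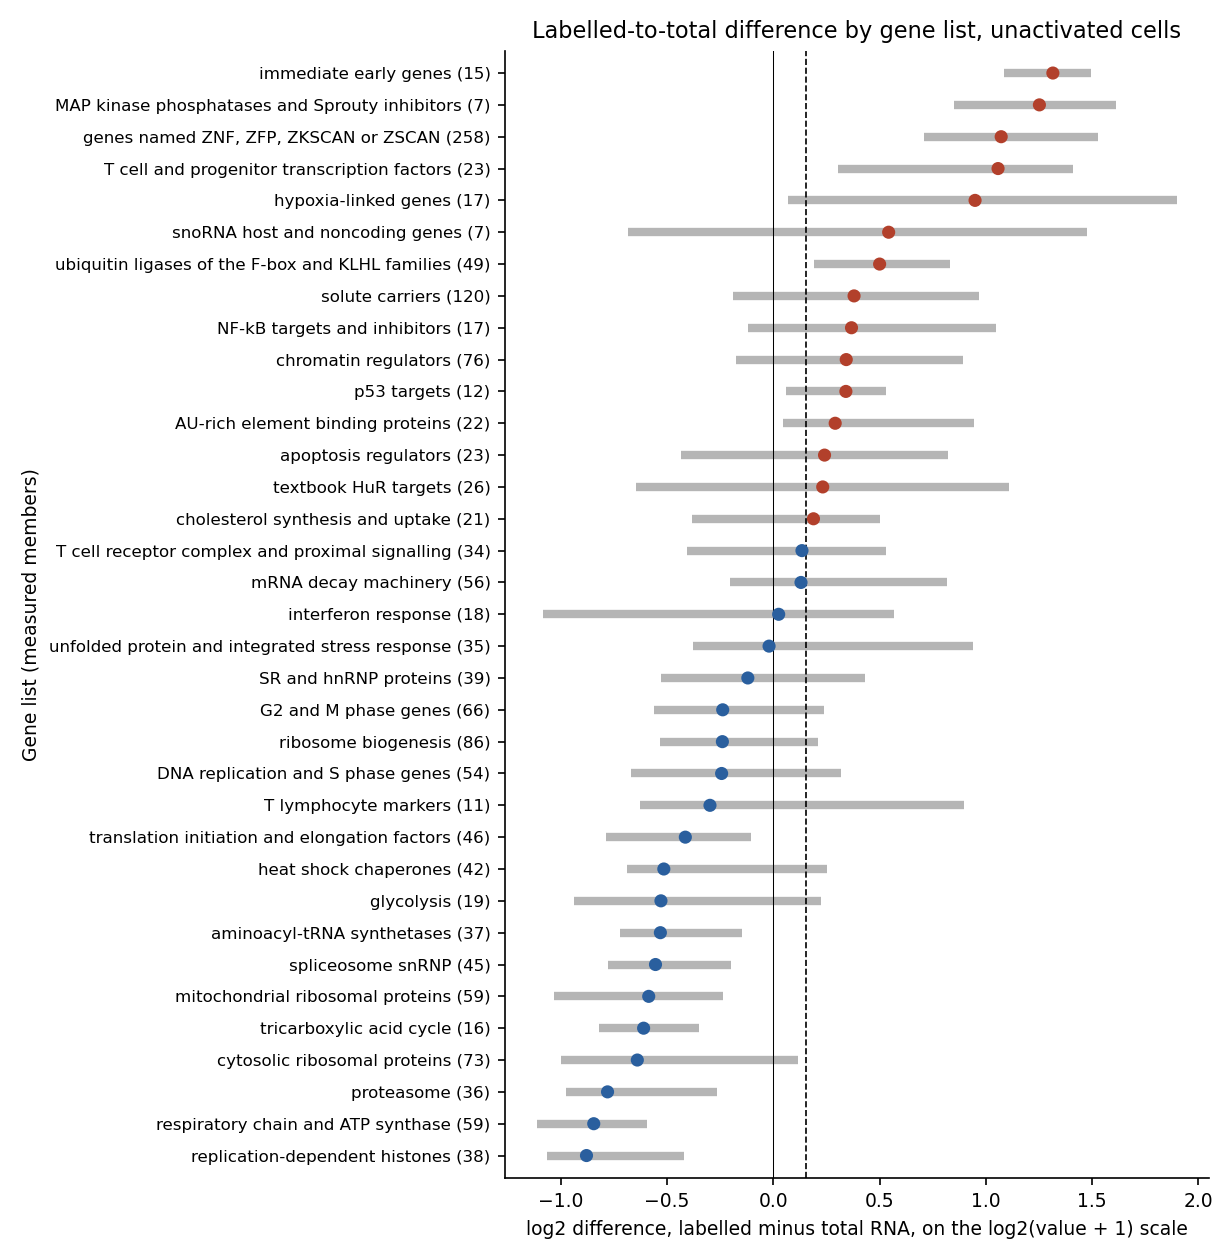
Median (points) and interquartile range (grey bars) of the log2 labelled-to-total difference over the listed members of 35 gene lists in unactivated cells, with the number of members in brackets; a gene may be in several lists. The dashed line marks the median of all genes (0.15), red points lie above it and blue points below, from histones at -0.88 to immediate early genes at 1.32.

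Abundance in total RNA was the measured feature that went most closely with the difference. Total RNA is itself part of the difference, so the level was also taken from the separate total RNA samples of 1 h. That removes only noise shared by the same samples, because a gene's total level at 1 h lay close to that at rest. A negative correlation can therefore be built in with either level, and its part was not tested. The Spearman correlation across 7485 genes was -0.48 with either, as a description of these libraries in which genes are not independent. In the quintile of genes with the lowest total values at rest 58.8% were higher and 3.47% lower, and in the quintile with the highest values 15.97% were higher and 53.2% lower. The RPKM column of the deposited table, by its header also a level of total RNA but corrected for gene length, gave -0.43. The mean in labelled RNA gave -0.05.

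Longer transcripts lay further to the labelled side. For the 7405 genes with a transcript in GENCODE 29, the Spearman correlation of the difference with transcript length was 0.35. The median log2 difference went from -0.39 in the shortest quintile (median length 1498 bases) to 0.51 in the longest (7671 bases). Total RNA levels differed little between these quintiles, with medians of 59.3 and 72.4. Among the 320 genes both in the quintile of highest level and in that of shortest length, 83.8% were lower in labelled RNA, and among the 256 of lowest level and longest transcripts 70.3% were higher. The number of uridines in the transcript, the base that 4sU replaces, gave 0.33, while their percentage gave 0.05 and the number of exons -0.01. The lists stood apart in length as well, with median transcripts of 1004 bases for cytosolic ribosomal proteins, 1141 for the respiratory chain, 1585.5 for the proteasome and 4066 for genes named ZNF, ZFP, ZKSCAN or ZSCAN, and the part of length in their values was not tested.

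AU-rich elements in the 3' UTR are recognised by proteins that speed or slow mRNA decay, so the 7-base core word of such elements was searched. The word is TATTTAT, written as DNA and read on the mRNA strand only, in the 3' UTR of 1 transcript per gene, with overlapping copies counted. It was found in 46.3% of the 2612 genes with a 3' UTR that were higher in labelled RNA, in 24.0% of the 1705 lower genes and in 37.4% of all 7291 genes with a 3' UTR. The median 3' UTR was 1876.5 bases in higher and 766 in lower genes, and a longer sequence holds any word more often. Genes with 0, 1, 2 and 3 or more copies had median differences of 0.01, 0.26, 0.41 and 0.45. Copies per kilobase of 3' UTR were 0.35 in higher, 0.28 in lower and 0.33 in all genes. Within quintiles of 3' UTR length, genes with the word had the higher median difference in each quintile. The gap was widest in the second quintile (0.22 against -0.04) and narrowest in the longest (0.44 against 0.40). Length still differed within quintiles, and its part was not tested. Median 3' UTRs with and without the word were 283 and 216 bases in the shortest quintile, and 4864 and 4163 in the longest. Of the 12 highest genes, 11 have an annotated 3' UTR and 5 of them hold the word. Of the 12 lowest, 2 of 11 hold it. Windows of 29 bases around the word are shown for those 5 genes and for 3 regulators described above, on the mRNA strand of GENCODE 29 transcripts on GRCh38, with the word in capitals. A match shows where the letters lie and not that a protein binds there.
ERN1 (chr17:64039635-64039663, minus strand, last exon): accTATTTATttaaccTATTTATATTTAT
STC2 (chr5:173317095-173317123, minus strand, last exon): tttTATTTATccagttatatctacatatc
C20orf112 (chr20:32447191-32447219, minus strand, last exon): gcaTATTTATtgagaaaagcaaagtggac
PTGER4 (chr5:40693163-40693191, plus strand, last exon): attTATTTATccagaaaactgtgatttca
ZNF780B (chr19:40030471-40030499, minus strand, last exon): ggaTATTTATcccctccaaatctcatatt
FOSL2 (chr2:28416102-28416130, plus strand, last exon): cacTATTTATtgacaggttgggctgtgtg
TNFAIP3 (chr6:137882306-137882334, plus strand, last exon): cttTATTTATtttattacaaacttcaaga
IER3 (chr6:30743645-30743673, minus strand, last exon): taaTATTTATatgTATTTATgtacgtcct
ERN1 holds 3 copies within its window, and IER3 holds 2 in the window and 4 in its 3' UTR.

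**Figure D4:**
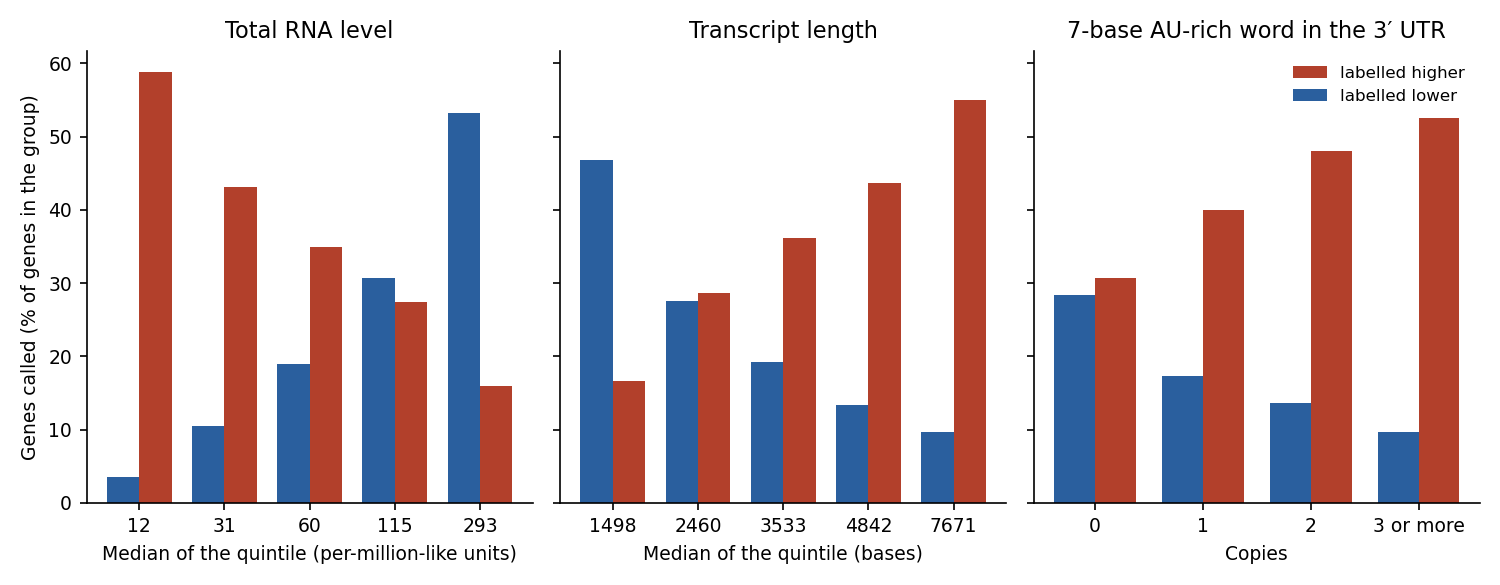
Percent of genes called higher (red) and lower (blue) in labelled RNA, by quintile of the mean in total RNA (left, 1497 genes each), by quintile of transcript length (middle, 1481 genes each) and by copies of TATTTAT in the 3' UTR (right). Labels under the bars give the median of each quintile, or the copies. The share of higher genes goes from 58.8% to 15.97% with level, from 16.7% to 55.0% with length and from 30.7% to 52.6% with copies.

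Binding by HuR, as the authors' deposited table gives it, had a weaker relation to the difference. Its 3 target columns differed in direction. Genes marked there as iCLIP targets had a median difference of 0.03 (1455 genes), against 0.19 for the other 6030. In the column for HuR targets in the 3' UTR, targets had a median of 0.17 (4345 genes) and non-targets 0.08 (2779 genes). In the column for any HuR binding, the medians were 0.06 (584 genes marked yes) and -0.01 (4433 marked no). The 2468 genes with no value in that column had a median of 0.48. The median total level of the iCLIP targets was 110, against 52.96 for the others. The deposited LOD score of HuR binding at 0 h was listed for 5017 genes and gave a Spearman correlation of 0.23 with the difference. Its lowest quintile had a median of -0.44, and its highest quintile 0.10. The median transcripts of these quintiles were 2158 and 3941 bases, and the part of length was not tested. The LOD score from another cell line gave 0.06. The sources used here do not give how these scores were made.

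Among gene types, the 44 long intergenic noncoding RNAs had 29 higher (65.9%), 3 lower (6.82%) and a median of 1.10, at a median total level of 10.5. In the quintile of genes with the lowest total values, whose median level was 11.8, 58.8% of all genes were higher. The median difference of that quintile was 0.77, and the part of level was not tested. Genes with few exons leaned the same way: the 261 genes with 2 exons had a median of 0.65 and the 133 with 1 exon 0.43, against 0.13 for the 7011 with more. Their median total levels were lower too, at 28.6 and 35.1 against 62.6, and the part of level was not tested.

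The order of genes at rest was close to that in the separate samples taken after activation. Across 7485 genes the labelled-to-total difference at rest had Pearson correlations of 0.896 to 0.905 with that at 1, 2, 3 and 4 h, as a description over genes that share annotation and length. Of the 2697 genes called higher at rest, 80.3% were called higher again at 1 h (34.1% of all genes were called higher at that hour) and 87.7% at 4 h (40.8% of all genes). Of the 1749 called lower at rest, 83.6% were called lower at 1 h (25.8% of all genes) and 91.0% at 4 h (31.0% of all genes). At all 4 hours the same call was made for 1800 (66.7%) and 1291 (73.8%) of them. The 1 h groups have 2 samples each, the others 3. Few genes were called by limma's test of the change from rest itself: 11 at 1 h (0.147%), 138 at 2 h (1.84%), 57 at 3 h (0.762%) and 71 at 4 h (0.949%). A gene without such a call may still have changed. At 1 h STC2 changed by -1.17 ± 0.41 (SE) and CDKN1A by 1.30 ± 0.33, and neither was called.

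The exceptions include genes of T cell biology. RAG1 was higher in labelled RNA at rest (0.60 ± 0.14) and lower at 1, 2 and 3 h, with -1.18 ± 0.12 at 2 h, and back at 0.62 at 4 h. RAG2 went from 1.23 at rest to -0.69 at 2 h and 0.83 at 4 h. CXCR4 went from 0.92 at rest to -0.26 at 2 h. HSPA8 went from -0.52 at rest to 0.59 at 1 h and -0.43 at 4 h. DUSP2 stayed on the labelled side throughout, at 1.84 at rest, 1.95 at 1 h and 0.81 at 4 h. Activation changes synthesis and decay while the labelling runs, so a difference after activation is no measure of turnover at steady state. Of the lists, immediate early genes went from a median of 1.32 at rest to 0.62 at 4 h, MAP kinase phosphatases and Sprouty proteins from 1.25 to 0.81, and zinc finger genes from 1.07 to 1.13. Histones stood at -0.88 at rest and -0.92 at 4 h, and the respiratory chain at -0.84 and -0.95.

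**Figure D5:**
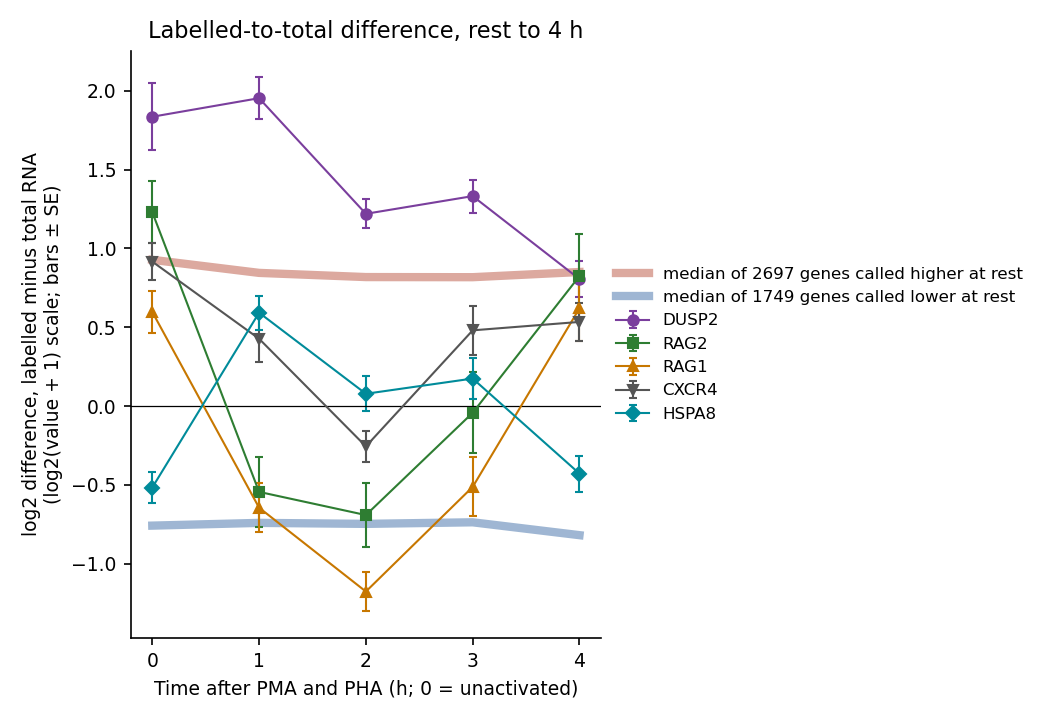
Log2 labelled-to-total difference (vertical, log2(value + 1) scale) at rest and 1 to 4 h after PMA and PHA (horizontal). Thick lines are medians of the 2697 genes called higher and the 1749 called lower at rest, and thin lines are single genes ± SE. The thick lines stay between 0.82 and 0.93 and between -0.82 and -0.74, while RAG1, RAG2 and CXCR4 dip below 0 at 2 h and HSPA8 lies above 0 at 1 h.

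The authors' deposited table turns the same means into a decay rate for unactivated cells. For all 7330 genes with a rate it equals the natural log of 1 less 0.266 times the labelled-to-total ratio, within 0.001, so the rate orders genes exactly as the ratio does and adds no measurement. In the authors' deposited table the rates ran from -6.09 to -0.05, with a median of -0.34. The 155 genes with no rate in the authors' deposited table are those whose ratio was 3.77 or more, and all 155 were called higher here. At such ratios 0.266 times labelled RNA exceeds total RNA, so the formula has no value. Such a ratio cannot be read as a young share on this scale. The 12 highest genes described above are among them, with ratios of 5.49 to 7.88. Of the 155 genes 23 (14.8%) are named ZNF, ZFP, ZKSCAN or ZSCAN, against 3.45% of all genes. A list limited to genes with a rate therefore leaves out the genes with the highest labelled-to-total ratio.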

How the data were processed

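RNA of Jurkat cells was extracted with Trizol, 4sU-labelled RNA was captured on streptavidin beads through biotin-HPDP, ribosomal RNA was removed with Ribo-Zero and ScriptSeq libraries were built, per the labels' protocols. TopHat2, HTSeq, edgeR and hg19 are named, without versions, per the submitters' processing notes. The deposited normalised signal values are group means and SDs, per the file headers. The deposited table also holds RPKM, natural log decay rates and LOD scores, made by the authors.

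limma 3.58.1 (R 4.3.3) was fitted from these means and SDs on the log2(value + 1) scale, the SD carried over to first order. Variances came from the 2 groups compared (4 residual degrees of freedom), moderated with a trend and the robust option. P-values are two-sided and corrected with the Benjamini-Hochberg method over all genes (threshold 0.05). Total and labelled samples were treated as independent. The fit was tested on simulated data. No low-value filter was applied.

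Features came from GENCODE 29, matched by gene ID for 7405 genes (98.9%), using the principal isoform. Motifs, overlap and correlations are descriptions with no test. The genes named are the 12 highest and 12 lowest called genes with both means at least 5, up to 3 called members of each list, fixed genes and the 10 most abundant of each kind. Other list members were named after their values were seen. Some genes that this rule names are not reported here. NEAT1 and GAS5 were among the fixed genes and are not listed. The members and gene lists were chosen with earlier results of these data known. Alternatives were other pseudocounts, a stricter filter, other variance models, a linear scale, other scalings and a 2-fold rule.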

Additional observations from a re-analysis of the deposited data

Results flagged for a closer look

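For 14 of the named genes reported here the labelled-to-total difference at an hour after activation differed from that at rest by limma's test of the change (adjusted p under 0.05 over all genes), given as the log2 change, hour minus rest. At 1 h it was 1.19 for ACTG1, -1.78 for RAG2, -1.24 for RAG1 and 1.11 for HSPA8, with 2 samples a group at that hour. At 2 h it was -1.92 for RAG2, -1.77 for RAG1, -1.17 for CXCR4, -1.11 for SOX11, -0.82 for MCL1 and -0.77 for MYC, and 0.88 for SMARCA1 and 0.59 for HSPA8. At 3 h it was 0.98 for SMARCA1, 0.69 for HSPA8, -1.11 for RAG1 and -0.60 for NCL. At 4 h it was -1.67 for FOSL2, -1.47 for KLF10, -1.22 for SNHG8, -1.03 for DUSP2 and -0.74 for NCL. Of these, RAG1, RAG2, CXCR4 and HSPA8 were called on opposite sides at rest and at an hour.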

How the results depend on the processing

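Over the alternatives other than the 2-fold rule, between 3985 and 5058 genes were called, 2100 to 3044 higher and 1652 to 2266 lower. With at least a 2-fold difference there were 1615 genes, 1185 higher and 430 lower, since that rule only removes genes. Taking the variance from all 10 groups gave the most calls (5058). Of the named genes, 2 of the most abundant changed sign with quantile normalisation, EIF4G2 to 0.25 and MATR3 to 0.31, and HSPA8 and LDHB became 0 because each has the same rank in both kinds of RNA. CDKN1A, IER3 and HSP90AA1 lost their calls there too, EIF4G2 lost its call with a constant prior variance and on the linear scale, and CENPF lost its call with a constant prior variance and with equal medians, where MATR3 became called. The other named genes kept direction and call under each alternative that tested them. Counts of called list members moved by more than 1.5 times in 10 cases with equal medians, 8 with quantile normalisation, 5 with variance from all groups, 4 with the stricter filter, 1 with a constant prior variance and 55 with the 2-fold rule. No paired analysis was possible because the deposited table gives means and SDs of groups and no values of single samples; leaving out a replicate was not run for the same reason. Whether 1 sample decides a value could not be examined, and depth is unknown. The spread of labelled samples sets the precision: in 30.3% of genes their SD was above 0.25 of the mean.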

Other observations

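Of all genes, RAG1, RAG2, CXCR4 and HSPA8 included, 49 were called on opposite sides at rest and at an hour after activation by limma, 35 of them higher in labelled RNA at rest and 14 lower. They were picked out after their values were seen, and except for the named genes above no test of the change is given. SLC2A1, the glucose transporter GLUT1, had log2 differences of 1.36 at rest, 1.05 at 1 h, -0.66 at 2 h, -0.86 at 3 h and 0.81 at 4 h. The transcription factor IKZF1 stood at 0.40 at rest, -0.59 at 2 h and 0.56 at 4 h, and the Groucho corepressor TLE1 at 0.66, -0.53 and 0.51 at the same times. MZB1, an endoplasmic reticulum protein of lymphocytes, stood at 0.61 at rest and -0.87 at 3 h. RNF145, a ubiquitin ligase of the endoplasmic reticulum, went the other way, from -0.44 at rest to 0.73, 0.98 and 0.61 at 2, 3 and 4 h. CBFB, the partner of RUNX factors, stood at -0.48 at rest, 0.57 at 2 h and -0.94 at 4 h, and the integrin chain ITGB2 at -0.68, 0.66 and -0.41. PDGFA, a growth factor chain, stood at 1.07 at rest, 2.00 at 2 h and -0.38 at 4 h.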
